A study of Mus musculus with 12 samples.

Results

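The immediate early genes are a set of 10 genes: Fos, Fosb, Jun, Junb, Egr1, Arc, Npas4, Nr4a1, Ier2 and Dusp1. They were taken by gene symbol, which the authors' deposited tables pair with the gene identifiers of the count tables, and all 10 were found among 27179 genes. Their counts were read in 12 bulk RNA-seq libraries of mouse dorsal cortex, strain C57BL/6. The 4 groups of 3 libraries were wild-type (WT) and Ash2l conditional knockout (cKO) embryos at embryonic ages E14.5 and E16.5. The study asked what Ash2l, a core subunit of the complexes that methylate histone H3 at lysine 4, does while the cortex forms. In the cKO a D6-Cre transgene deletes Ash2l in cells of the dorsal telencephalon, so blood vessels, microglia and meninges in the dissected tissue are expected to keep the gene. The labels do not say whether WT embryos carried the transgene or the floxed alleles, nor whether 1 library holds 1 embryo. If the libraries of a group did not come from separate embryos, the p-values measure only technical spread.

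Immediate early genes are switched on within minutes of a stimulus, without the need for newly made protein, and their RNAs are short-lived. In neurons the stimulus is often calcium entry through synaptic receptors and channels, and in dividing cells it is often a growth factor. The signal reaches their promoters through MAP kinases and through transcription factors already bound there, chiefly CREB at the cAMP response element, serum response factor with its ELK partners at the CArG box, and MEF2. Fos, Fosb, Jun and Junb encode subunits of the dimeric factor AP-1. Egr1, Npas4 and Nr4a1 encode other transcription factors, Arc a protein of the postsynaptic side of synapses, Ier2 a nuclear protein, and Dusp1 a phosphatase that switches MAP kinases off.

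The promoters of 4 genes are printed because they are those of genes on which the results turn. Jun and Dusp1 were the 2 genes of the set that changed in the cKO over both ages, and Fos and Npas4 are textbook activity reporters whose RNA was scarce here. Each sequence is the 250 bases before the RefSeq start of transcription, 5′ to 3′ on the gene's strand, in build GRCm38.p6. The windows are chr4:95052223-95052472 for Jun, chr17:26508473-26508722 for Dusp1 and chr19:4989972-4990221 for Npas4, all on the minus strand, and chr12:85473640-85473889 on the plus strand for Fos. Capitals mark exact matches to the cAMP response element TGACGTCA, its half-site TGACG, the TATA motif TATAAA, the element TGACATCA and the MEF2 motif, and the search covered both strands.
Jun: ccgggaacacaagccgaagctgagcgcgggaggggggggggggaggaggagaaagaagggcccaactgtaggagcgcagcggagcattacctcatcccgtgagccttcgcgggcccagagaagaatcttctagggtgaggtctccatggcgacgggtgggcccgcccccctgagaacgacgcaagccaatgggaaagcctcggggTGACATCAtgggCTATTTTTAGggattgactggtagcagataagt
Dusp1: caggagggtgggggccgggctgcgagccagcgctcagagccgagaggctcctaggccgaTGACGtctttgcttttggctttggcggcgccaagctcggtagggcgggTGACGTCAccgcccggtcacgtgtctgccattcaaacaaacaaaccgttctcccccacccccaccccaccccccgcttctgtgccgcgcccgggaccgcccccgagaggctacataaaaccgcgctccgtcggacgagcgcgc
Fos: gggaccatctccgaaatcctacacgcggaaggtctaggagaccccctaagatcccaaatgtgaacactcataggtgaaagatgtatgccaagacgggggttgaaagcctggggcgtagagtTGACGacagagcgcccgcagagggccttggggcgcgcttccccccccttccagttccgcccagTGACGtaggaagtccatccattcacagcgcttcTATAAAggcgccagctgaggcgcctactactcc
Npas4: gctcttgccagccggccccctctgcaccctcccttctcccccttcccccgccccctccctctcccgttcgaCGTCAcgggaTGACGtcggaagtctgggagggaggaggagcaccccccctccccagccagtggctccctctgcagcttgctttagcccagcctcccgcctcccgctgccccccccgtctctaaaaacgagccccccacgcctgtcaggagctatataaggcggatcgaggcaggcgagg
Dusp1 holds the full element TGACGTCA from base -143 to -136, counted back from the start of transcription, and a separate half-site at -191. The full element contains the half-site on both strands. Of 32851 promoter windows of the same length, 1.55% held TGACGTCA and 17.8% held TGACG. Fos holds half-sites at -129 and -66 and the TATA motif at -33, which 12.4% of windows held. Npas4 holds 2 half-sites, at -179 and -169. Jun has no match to TGACG. It holds TGACATCA at -45, found in 2.93% of windows, and a MEF2 motif at -33, found in 2.92%. The AP-1 motif TGANTCA, in 6.75% of windows, and the CArG box, in 1.47%, had no match in these 4 windows. Bases further upstream than 250 were not searched, so a promoter without a match here may still hold the motif. The promoter table held 7 of the 10 genes, the other 3 being Arc, Egr1 and Ier2. Among the remaining genes with a window, Nr4a1 has 4 half-sites, Fosb 1 and Junb 1. A match is a description of the letters, and no binding was measured here.

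Some facts of the libraries bear on every value below. Totals ran from 14318147 to 24719047 counts. Ash2l itself fell in the cKO, from 129 ± 12.9 to 52.8 ± 6.61 CPM (counts scaled to library size; mean ± SD, n = 3) at E14.5 and from 133 ± 3.57 to 58.1 ± 3.30 CPM at E16.5 (edgeR log2 fold changes -1.28, adjusted p = 0.0124, and -1.20, adjusted p = 8.19e-04). Each title holds a number that 1 WT and 1 cKO library share. Libraries carry here their genotype and a letter for that number, A to C at E14.5 and D to F at E16.5, so that WT A and cKO A have the same number. At E14.5 the 3 WT libraries held RNA of Y-linked genes and the 3 cKO libraries held Xist RNA in its place, so sex and genotype cannot be told apart at that age. At E16.5 each genotype had both sexes, with Xist RNA high in WT D and cKO F. A term for sex in a fit of 12 libraries can therefore separate sex from genotype only through the E16.5 libraries. At E14.5 such a fit applies a sex difference seen at E16.5 and cannot settle the part of sex there. The dorsal cortical markers Emx1, Tbr1 and Neurod6 lay at 22.4 to 65.3, 235 to 444 and 325 to 638 CPM over the 12 libraries. The ventral markers Nkx2-1 and Lhx8 reached at most 1.64 and 0.944 CPM. These 5 were picked from the marker lists after their values could be seen. Nkx2-1 and Lhx8 do not stand for their list, whose 21 ventral GABAergic markers summed to 148 CPM in cKO A and up to 574 CPM in WT B. Single libraries stood apart for other tissue. In cKO A the summed meningeal markers reached 522 CPM, against 52.2 to 107 in the other E14.5 libraries, in WT B the summed ventral GABAergic markers reached 574 CPM, against 148 to 300, and the summed choroid plexus markers were 492 CPM in WT A and 637 CPM in WT F, against 9.77 to 61.8 in all others. The summed neuronal markers were lower in every cKO library, at 3622 to 6110 CPM against 6282 to 8260 CPM in WT at E14.5 and 6346 to 6762 CPM against 8416 to 9138 CPM at E16.5. In bulk tissue, fewer cells of a type and less RNA per cell cannot be told apart, and the part of these differences in the results below was not tested except where libraries were left out.

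The 10 genes spanned a wide range of RNA levels, with gaps below Jun and below Ier2. Per kilobase of exon, which allows genes to be compared, Jun was highest, with a median of 26.1 CPM per kb over the 12 libraries and a range from 15.2 in WT D to 42.2 in cKO C. That median stood at the 86.3 percentile of 21323 detected genes. Dusp1 followed with a median of 9.51 CPM per kb (7.24 to 14.6) and Ier2 with 7.80 (5.0 to 11.2), and the ranges of these 2 genes overlapped. Jun's lowest library lay above the highest of Dusp1, and Ier2's lowest lay above the highest of Arc. Below that gap came Arc at a median of 1.46 CPM per kb (0.660 to 2.30), Nr4a1 at 1.07 and Junb at 0.896, with overlapping ranges. The lowest medians were those of Egr1 at 0.326, Fos at 0.249, Npas4 at 0.115 and Fosb at 0.0578 CPM per kb. Neighbours from Arc downward all overlapped, Junb and Egr1 included.

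**Figure D1:**
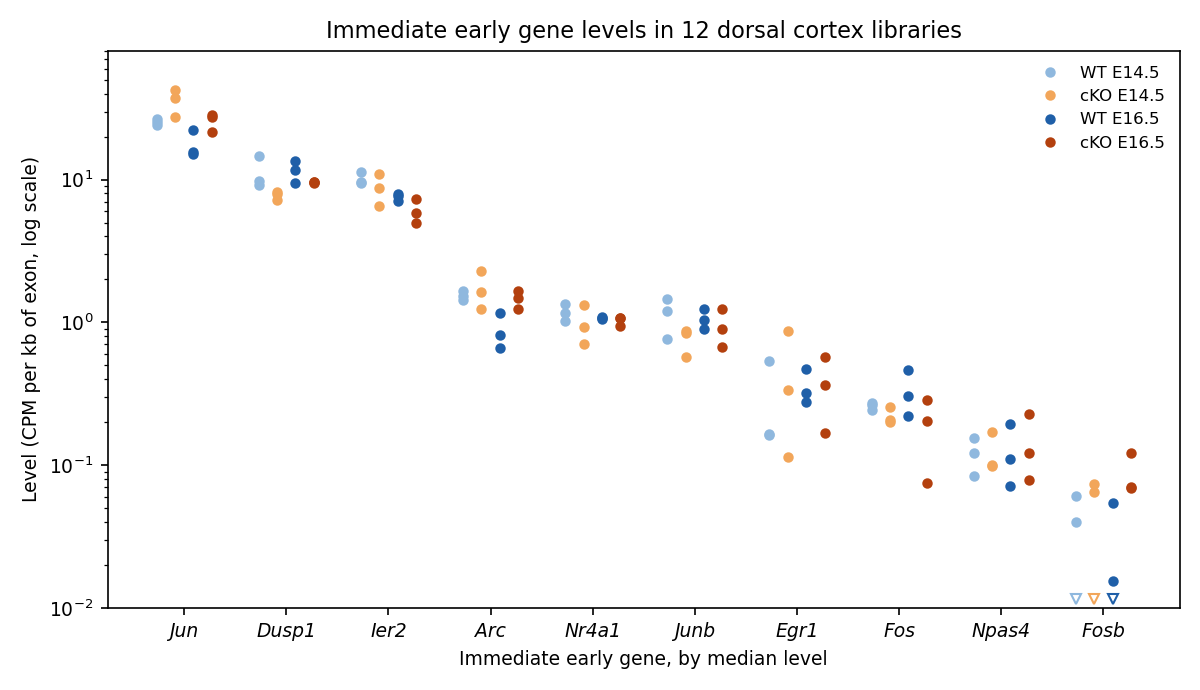
Levels of the 10 immediate early genes in CPM per kilobase of exon (log axis), 1 point per library, coloured by genotype and age, and genes ordered by their median; open triangles mark libraries with 0 Fosb counts. Jun lies between 15.2 and 42.2, and Egr1, Fos, Npas4 and Fosb reach at most 0.876.

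Fos, Fosb, Egr1 and Npas4 together gave between 23 and 64 counts per library. Fos, the AP-1 subunit most used as a marker of neuronal activity, had 11, 9 and 11 counts in WT A, B and C and 8, 6 and 13 in the cKO libraries of the same letters, then 12, 8 and 19 in WT D, E and F and 3 to 9 in their cKO counterparts. Npas4, which neurons induce on calcium entry, had 4 to 14 counts in every library. Fosb had 0 counts in cKO A, WT B and WT D, where a count of 0 allows up to 0.162, 0.190 and 0.159 CPM. None of these 4 genes was therefore measured well enough for a modest change to be seen, and these limits cover counting error only.

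Jun was the largest single contributor to the RNA of the set in every library. Its share of the summed level per kb was 52.4%, 45.4% and 51.0% in WT A, B and C and 62.0%, 59.3% and 66.9% in cKO A, B and C. At E16.5 it was 38.7%, 40.3% and 50.9% in WT D, E and F and 53.5%, 58.9% and 57.3% in the cKO. The 6 cKO libraries thus ranged from 53.5% to 66.9% and the 6 WT libraries from 38.7% to 52.4%, without overlap. The share depends on the other genes of the sum as well. Dusp1 and Ier2 together took 39.0% (WT A) to 52.5% (WT D) in WT and 26.5% (cKO C) to 35.5% (cKO D) in the cKO. Jun's own level overlapped between the genotypes, at 22.4 CPM per kb in WT F and 21.7 in cKO D. This share is given as a description with no test, and no like share was worked out for other genes. Fos, Fosb, Egr1 and Npas4 together took between 0.840% and 2.64% of the sum.

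**Figure D2:**
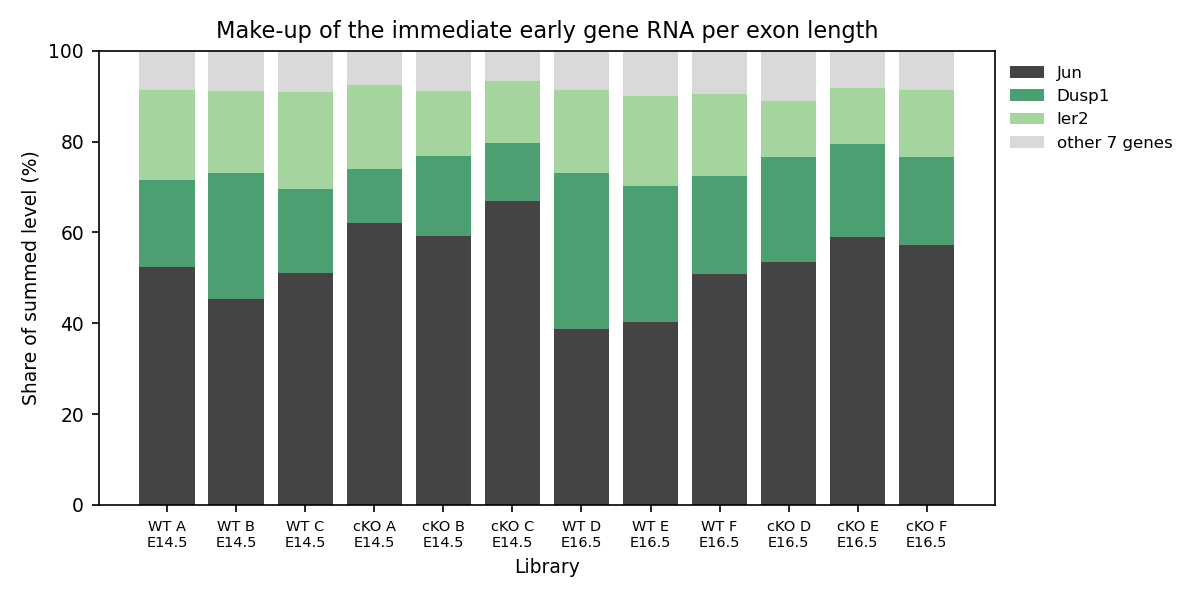
Make-up of the summed level per kilobase of exon of the 10 genes in each of the 12 libraries, in percent, with 1 stacked bar per library. Jun (dark) takes 38.7% to 52.4% in the WT bars and 53.5% to 66.9% in the cKO bars.

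Over both ages, Jun was higher and Dusp1 lower in the cKO, and no other gene of the set passed the test. This fit took all 12 libraries with age and genotype as terms (edgeR's quasi-likelihood F test, Benjamini-Hochberg adjustment over all genes). Jun rose 1.43-fold (log2 fold change 0.52, SE 0.12, adjusted p = 0.00673), and Dusp1 fell to 0.761 of its WT level (log2 fold change -0.39, SE 0.12, adjusted p = 0.0285). These were 2 of the 9 genes tested, beside 28.3% of all genes tested, so a share of this size is near that of the whole transcriptome. Fosb did not pass the filter on low counts in any fit, nor Npas4 at either single age.

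**Figure D3:**
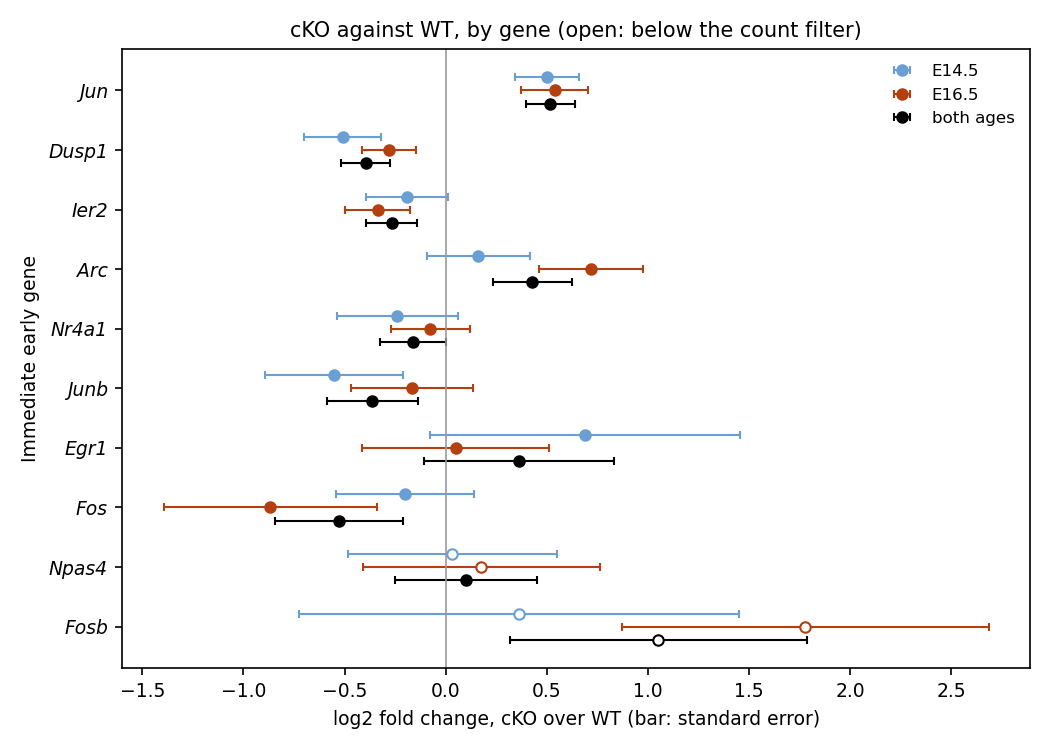
Log2 fold change of the cKO over WT for each gene, with its standard error as a bar, at E14.5, at E16.5 and over both ages; open points are fits without the filter on low counts. Jun lies above 0 in all 3 comparisons (0.50, 0.54 and 0.52) and Dusp1 below it (-0.51, -0.28 and -0.39).

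Jun (chr4:95049036-95052222, minus strand, mm10) is an intronless gene whose product pairs with Fos proteins, with itself or with other bZIP factors. At E14.5 it was at 80.7, 76.6 and 85.4 CPM in WT A, B and C and at 119, 87.4 and 134 CPM in cKO A, B and C. All 3 cKO libraries lay above all WT libraries, the nearest pair being cKO B and WT C. The means were 114 ± 23.9 against 80.9 ± 4.41 CPM (SD, n = 3), and the difference did not pass the adjusted threshold at this age alone (log2 fold change 0.50, SE 0.16, edgeR adjusted p = 0.148). At E16.5 Jun was at 48.4, 49.9 and 71.2 CPM in WT D, E and F and at 69.3, 87.5 and 91.0 CPM in the cKO. WT F lay just above cKO D, so the groups overlapped by that pair, while each cKO library lay above the WT library of its own letter. The log2 fold change was 0.54 (SE 0.17, adjusted p = 0.0659), and 0.55 with the shared number as a block (adjusted p = 0.00117). Without WT F it was 0.75 (adjusted p = 0.0202) and without cKO D 0.65 (adjusted p = 0.0322). The authors' deposited table gives Jun a log2 ratio of WT over knockout of -0.45 (adjusted p = 0.0671) at E14.5 and of -0.48 (adjusted p = 0.0214) at E16.5, the same direction as here. Over both ages Jun stayed below the threshold when each of the 12 libraries was left out in turn, with log2 fold changes of 0.46 to 0.60 and adjusted p-values of 0.00199 to 0.0201. With a term for the sex read from Xist and Y-linked RNA it was 0.55 (adjusted p = 0.0239).

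Dusp1 (chr17:26505591-26508472, minus strand, mm10; 4 exons) encodes the nuclear phosphatase that ends MAP kinase signalling. At E14.5 it was at 17.9, 28.4 and 18.9 CPM in WT A, B and C and at 14.1, 15.8 and 15.5 CPM in the cKO. Every cKO library was lower than every WT library, and WT B stood well above the other 2 WT libraries. The means were 15.1 ± 0.948 against 21.7 ± 5.81 CPM (log2 fold change -0.51, SE 0.19, edgeR adjusted p = 0.196). Without WT B the value was -0.27. The E16.5 values were 26.1, 22.5 and 18.4 CPM in WT D, E and F and 18.3, 18.6 and 18.6 CPM in the cKO. The cKO libraries were almost level with each other and with WT F, so the groups overlapped (log2 fold change -0.28, SE 0.13, adjusted p = 0.194). The Dusp1 call over both ages was lost without cKO C (adjusted p = 0.0532), without WT D (adjusted p = 0.0687) and with the sex term (log2 fold change -0.41, adjusted p = 0.0652). Without WT B and cKO A, the 2 E14.5 libraries with the most ventral and meningeal marker RNA, the value over both ages was -0.26 (adjusted p = 0.0488).

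Arc (chr15:74669083-74672570, minus strand, mm10) encodes a protein that regulates glutamate receptors at synapses. At E14.5 its CPM values were 5.050, 4.681 and 4.386 in WT A, B and C and 3.769, 7.043 and 4.968 in the cKO. The cKO libraries lay on both sides of the WT libraries, with cKO A lowest and cKO B highest of the 6 (log2 fold change 0.16, SE 0.25, edgeR adjusted p = 0.759). At E16.5 they were 2.018, 2.499 and 3.542 in WT D, E and F and 3.778, 5.033 and 4.558 in the cKO. Here all cKO libraries were above all WT libraries, with means of 4.46 ± 0.634 against 2.69 ± 0.779 CPM. The log2 fold change was 0.72 (SE 0.26, adjusted p = 0.0956), and 0.74 with the shared number as a block (adjusted p = 0.0305). Over both ages it was 0.43 (adjusted p = 0.116). Without cKO A alone it passed (0.54, adjusted p = 0.0344).

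Ier2 (chr8:84661331-84662852, minus strand, mm10), an intronless gene, was at 14.65, 14.48 and 17.08 CPM in WT A, B and C and at 16.80, 9.971 and 13.22 CPM in the cKO. The cKO A library fell among the WT values and the other 2 cKO libraries below them (log2 fold change -0.19, edgeR adjusted p = 0.635). The E16.5 values were 10.83, 11.74 and 12.01 CPM in WT and 7.609, 8.821 and 11.16 CPM in cKO D, E and F. Only cKO F overlapped the WT range (log2 fold change -0.34, SE 0.16, adjusted p = 0.192). Over both ages the value was -0.27 (adjusted p = 0.136), and without cKO A it passed at -0.37 (adjusted p = 0.0299).

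**Figure D4:**
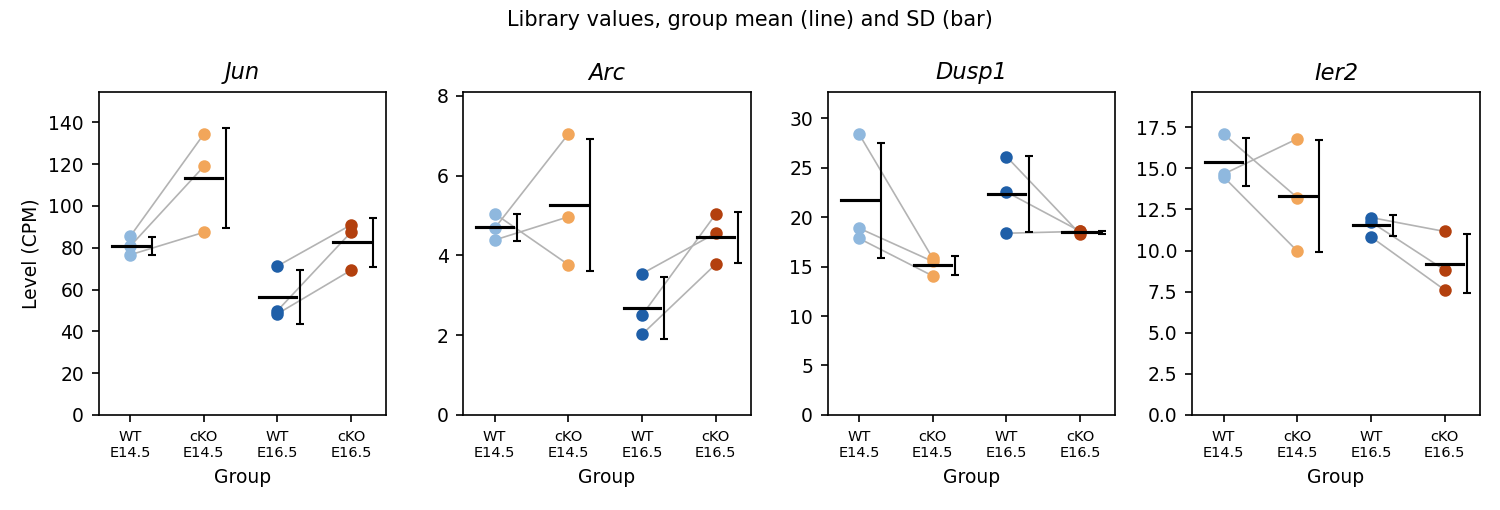
CPM of Jun, Arc, Dusp1 and Ier2 in each library, with the group mean as a line and the SD as a bar (n = 3); grey lines join the WT and cKO library that share a title number. Jun is higher in the cKO library of each of the 6 joined pairs, while the E14.5 points of Arc and Ier2 lie in both directions.

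None of the other AP-1 genes passed the test in any fit. Junb, a Jun paralogue that forms less active dimers with Fos, was at 1.40, 2.21 and 2.68 CPM in WT A, B and C and at 1.56, 1.05 and 1.60 CPM in the cKO, and the groups overlapped (log2 fold change -0.55, edgeR adjusted p = 0.410). Its E16.5 means of 1.94 ± 0.312 CPM in WT and 1.73 ± 0.526 CPM in the cKO differed by less than their SDs. Fos had a log2 fold change of -0.20 (adjusted p = 0.810) at E14.5, -0.87 (adjusted p = 0.301) at E16.5 and -0.53 (adjusted p = 0.233) over both ages, on counts of 3 to 19. Its E16.5 value was -0.47 without cKO E and -1.25 without cKO F. Fosb had 3, 0 and 5 counts in WT A, B and C and 0, 4 and 6 in the cKO. At E16.5 it had 0, 1 and 4 counts in WT D, E and F and 5, 5 and 7 in the cKO, so the cKO libraries were the higher ones at this age. That order rests on 4 counts in WT F against 5 in cKO D and E. Genotypes did not overlap at E16.5 for 37.5% of all genes tested, and Fosb was not among those tested. Without the filter its E16.5 log2 fold change was 1.78 (SE 0.91, adjusted p = 0.257). The test of whether Jun and the other AP-1 genes differed in their response was not run.

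Egr1, a zinc-finger factor downstream of serum response factor, had SDs close to its means at E14.5 (0.884 ± 0.659 CPM in WT, 1.36 ± 1.21 CPM in the cKO). Its counts were 10, 26 and 11 in WT A, B and C and 50, 5 and 25 in the cKO. The highest value of all 12 libraries came from cKO A, which also had the most meningeal (522 CPM), endothelial and pericyte (408 against 198 to 287 CPM), microglial (60.7 against 29.4 to 49.5 CPM) and red blood cell (676 against 157 to 323 CPM) marker RNA of the E14.5 libraries. The E14.5 log2 fold change of Egr1 was 0.69 (edgeR adjusted p = 0.656), and it was -0.24 without that library, 1.46 without WT B, 1.10 without cKO B and 0.54 with WT B and cKO A both left out. At E16.5 Egr1 was at 1.09 ± 0.318 CPM in WT and 1.13 ± 0.619 CPM in the cKO. Nr4a1, an orphan nuclear receptor, was among the steadiest of the set at E16.5, at 2.67 ± 0.0458 CPM in WT and 2.54 ± 0.175 CPM in the cKO (log2 fold change -0.08). At E14.5 it was at 2.92 ± 0.398 and 2.44 ± 0.781 CPM (log2 fold change -0.24, adjusted p = 0.695). Npas4 was at 0.394 ± 0.115 CPM in WT and 0.403 ± 0.134 CPM in the cKO at E14.5, and at 0.410 ± 0.207 and 0.467 ± 0.250 CPM at E16.5.

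At E14.5 alone, 0 of the 8 genes tested were called by edgeR, beside 2.01% of all genes tested. DESeq2 also called 0, beside 1278 of all genes. For 2 genes, Jun and Dusp1, the unadjusted edgeR p was under 0.05 (0.0154 and 0.0298), beside 2989 of all 14788 genes tested. The libraries of the 2 genotypes did not overlap for the same 2 of 8 genes, beside 26.8% of all genes tested. At E16.5 alone, again 0 of 8 were called, beside 15.9% of all genes tested. Here DESeq2 called 1, Jun. The share of all genes that DESeq2 called at this age is not given here, so this 1 call cannot be set against it. For Jun and Arc, edgeR gave unadjusted p-values of 0.0124 and 0.0229. Of all 14865 genes tested, 4692 had an unadjusted edgeR p under 0.05. Arc was the 1 of 8 genes without overlap between genotypes, beside 37.5% of all genes tested. With the shared number as a block, 2 of 8 were called at E16.5, Jun and Arc, beside 32.2% of all genes tested.

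No age difference of the cKO effect was detected. In the fit of 4 groups, edgeR called 0 of the 9 genes tested, beside 0.0% of all genes tested (0 of 15338, of which 318 had an unadjusted p under 0.05; DESeq2 called 0). The smallest p among the 9 was that of Arc, whose cKO effect was larger at E16.5 by 0.57 on the log2 scale (SE 0.37, unadjusted p = 0.145). For Jun the difference was 0.06 (SE 0.25). These errors leave room for differences as large as the effects themselves.

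In WT cortex, Jun, Arc and Ier2 were lower at E16.5 than at E14.5, and none passed the test. Jun went from 80.9 ± 4.41 to 56.5 ± 12.8 CPM (log2 fold change -0.52, SE 0.18, edgeR adjusted p = 0.0987). Arc went from 4.71 ± 0.333 to 2.69 ± 0.779 CPM (-0.80, SE 0.26, adjusted p = 0.0885, and with DESeq2 -0.79, adjusted p = 0.0425). Ier2 went from 15.4 ± 1.46 to 11.5 ± 0.616 CPM (-0.42, SE 0.18, adjusted p = 0.166). For these 3 of 9 genes the WT libraries of the 2 ages did not overlap, beside 35.3% of all genes tested. In all, edgeR called 0 of 9 genes, beside 2.15% of all genes tested, and DESeq2 called 1, Arc, beside 2005 of all genes. The ages were counted in separate tables, so age and table cannot be told apart. Without cKO A, whose spread enters the same fit, Arc passed (-0.80, adjusted p = 0.0496).

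Other genes of the same response were read from lists of known genes. Of 43 further immediate early genes, 36 were tested at each age. At E14.5 edgeR called 0 of them, beside 2.01% of all genes tested. An unadjusted p under 0.05 was found for 8 of 36, beside 2989 of all 14788 genes tested. DESeq2 called 3, all lower, beside 1278 of all genes, so these counts are near those of the whole transcriptome. The median log2 fold change was -0.21, beside 0.03 over all genes tested. Mcl1 and Dusp4, the list's most abundant members, had values of -0.10 and -0.31. At E16.5, 3 of 36 fell and 0 rose, beside 15.9% of all genes tested, with a median of -0.19 beside 0.02 over all genes. These were Nfil3, a bZIP repressor of the circadian clock (28.1 ± 3.96 CPM in WT, 13.8 ± 2.42 CPM in the cKO, log2 fold change -1.04, adjusted p = 0.00545), Plk2, a kinase of synaptic scaling (-0.80, adjusted p = 0.0204), and Sik1, a kinase that restrains CREB coactivators (-0.25, adjusted p = 0.0491). Plk2 did not pass in the fit of 12 libraries (adjusted p = 0.119) or with the sex term (adjusted p = 0.155), and Sik1 did not in those fits (0.0905 and 0.125), with library totals (0.0860), without the filter (0.0711) or without any 1 library. With the shared number as a block, 10 of 36 fell and 1, Zfp36l1, rose, beside 32.2% of all genes tested. Over both ages 8 of 37 fell and 1, Cyr61, rose, beside 28.3%. Both names were chosen after their values were seen.

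Delayed response genes, which follow the immediate wave, gave 15 tested members. Nrn1, a neuritogenic protein of the cell surface, fell at both ages, by 0.74 on the log2 scale (edgeR adjusted p = 0.0407) at E14.5 and by 0.86 (adjusted p = 0.0143) at E16.5. Crh, a stress neuropeptide, rose at E16.5 from 0.110 ± 0.0610 to 0.979 ± 0.414 CPM (log2 fold change 3.09, adjusted p = 0.0126). It is near silent in WT and passed the filter through its cKO libraries. With the sex term, which rests on the E16.5 libraries, Nrn1 did not pass at E14.5 (edgeR adjusted p = 0.111). The other members did not pass. Thus 1 of 15 fell at E14.5, beside 2.01% of all genes tested, and 1 rose and 1 fell at E16.5, beside 15.9%. The list's median was -0.73 at E14.5 and -0.19 at E16.5, beside 0.03 and 0.02 over all genes tested. With the block, 3 of 15 fell at each age, beside 7.12% of all genes tested at E14.5, where the numbers were not taken as pairs, and 17.9% at E16.5. Crh also rose with the block at E16.5, beside 14.3% of all genes tested. In the same libraries the neuronal markers were lower, with 10 of 18 called lower at E16.5 (median -0.43), beside 15.9% of all genes called in either direction, and 1 of 18 at E14.5 (median -0.52), beside 2.01%.

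The upstream regulators, 39 of 39 tested, did not lean to 1 side. At E14.5 Camk2a, the calcium-dependent kinase of mature synapses, fell (log2 fold change -1.01, edgeR adjusted p = 0.0355, and 0.0634 with the sex term). At E16.5, 3 of 39 rose and 2 fell, beside 15.9% of all genes tested, with a median of 0.03. The kinase gene Map2k1, which acts directly above the ERK kinases, rose from 21.7 ± 1.41 to 30.8 ± 1.84 CPM (0.49, adjusted p = 0.0127). Mkl2, a coactivator of serum response factor, rose by 0.44 (adjusted p = 0.0337) and the ternary complex factor Elk4 by 0.26 (adjusted p = 0.0294). The CREB coactivator Crtc3 fell from 42.6 ± 0.419 to 31.3 ± 1.23 CPM (-0.45, adjusted p = 0.00763), and the ternary complex factor Elk3 fell by 0.61 (adjusted p = 0.0169). Neither ternary complex factor passed in the fit of 12 libraries (adjusted p = 0.0503 for Elk4 and 0.127 for Elk3) or with the sex term (0.0762 and 0.156). With the block, 7 of 39 rose and 7 fell, beside 32.2% of all genes tested.

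Heat-shock genes, another rapidly induced group, were read beside the set. At E14.5 edgeR and DESeq2 called 0 of 11 tested, and 0 had an unadjusted p under 0.05, beside 2989 of all 14788 genes tested. Hspa8 and Hsp90ab1 had log2 fold changes of -0.05 and -0.16. At E16.5 Hsp90ab1 (-0.30, adjusted p = 0.0202) and the co-chaperone Bag3 (-0.80, adjusted p = 0.0434) fell and 0 rose, beside 15.9% of all genes tested. With the block the same 2 genes fell and 1, Hsf1, rose, beside 32.2% of all genes tested. The name Hsf1 was chosen after its value was seen. Neither Hsp90ab1 nor Bag3 passed in the fit of 12 libraries (adjusted p = 0.0536 and 0.133) or with the sex term (0.0704 and 0.159), and Bag3 did not with library totals (0.0529) or without the filter (0.05003). Of the 12 list genes called at E16.5, Nfil3 and Crtc3 kept their call when each library was left out in turn. The other 10 lost it without WT E or without cKO E. At E14.5 the calls of Nrn1 and Camk2a were lost without any 1 of the libraries except cKO A.

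The genes of the set did not all vary together from library to library. After each group's mean was removed, the Pearson correlations over the 12 libraries ran from 0.86 for Nr4a1 with Ier2, 0.69 for Fosb with Arc and 0.67 for Jun with Ier2 to -0.63 for Egr1 with Arc and -0.65 for Fosb with Egr1. Jun with Dusp1 stood at -0.46. These are descriptions over libraries that share their depth and dissection. Those of Fosb rest on 0 to 7 counts, of Fos on 3 to 19, of Npas4 on 4 to 14 and of Egr1 on 5 to 50, where counting error alone weakens a correlation. No library was highest of its group for all 10 genes. WT C and WT F were highest for 5 each, cKO B and WT D were lowest for 6 each, and cKO C and cKO F were lowest for 0. Among 13759 genes of at least 1 CPM, and after removal of group means, those whose levels most resembled the mean of the set included Scly (r = 0.91), Hmces (0.89), Ybx1 (0.88), Foxp2 (0.87) and Hsph1 (0.85). They are among the highest of many correlations over only 12 libraries.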

How the data were processed

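RNA of dorsal cortex was sequenced in 12 libraries, grouped by the genotype and age in the labels. Per the submitters' processing notes, STAR 2.5.2b was the aligner and mm10 the build. They made the deposited counts with featureCounts 1.5.2, per the file headers: raw fragment counts over exons, on the reverse strand (setting 2) with an overlap of at least 25 bases. They also deposited log2 fold changes of WT over knockout and p-values from DESeq2 1.14.1 at each age, per the submitters' processing notes. Those tables hold 12 further columns of library values, which were left out. Of 27179 genes, 26332 have a symbol.

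Counts were tested with edgeR 4.0.16 (limma 3.58.1, R 4.3.3): TMM scaling, filterByExpr by group, robust quasi-likelihood fits and an F test, with Benjamini-Hochberg adjusted p under 0.05 over all genes as the call. The single-age fits used 6 libraries each, and all 12 libraries were fitted with 4 groups or with age and genotype. CPM use TMM-scaled library sizes over 12 libraries, and standard errors were worked back from the log2 fold change and F. Log2 CPM for correlations used a prior count of 2. Between libraries of 1 group, chi-square per degree of freedom was 9.06 to 48.3, so no library was a copy. Totals of 14318147 to 24719047 counts make 3 counts worth 0.121 to 0.210 CPM.

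Deviations of same-numbered libraries from their group means correlated at 0.28, 0.21 and 0.11 over genes at E16.5, and those numbers were taken as pairs. At E14.5 they were 0.27, 0.30 and -0.00, and the numbers were not taken as pairs. Differently numbered libraries gave -0.27 to 0.11 at E16.5 and -0.30 to 0.091 at E14.5. With group means removed, these values are not independent of the same-numbered ones. The 2 ages thus differed little in this, and whether the numbers pair the libraries is open at both. The main fits used no block. On simulated counts, edgeR recovered 7% of 1.5-fold and 65% of 2-fold changes at E14.5 (14788 genes simulated), 37% and 72% at E16.5 (14865) and 53% and 80% over both ages (15338). Each simulation changed 100 random genes per fold and no others. In the data many more were called at E16.5 and over both ages (15.9% and 28.3%), where the adjustment is milder. The changed genes were not matched in level to the 10 genes, so these shares do not give the power for them. All 10 genes are named whatever they did. Genes most like the set are named by correlation, and 1 of them is not reported here. Of each other list, up to 5 members called at an age, or the 2 most abundant where none was, are named. The genes and lists were chosen with earlier results of these data known. Alternatives were other scaling, no filter, DESeq2 1.42.0, the block, a sex term, joint fits and leaving libraries out. Promoter sequences are from RefSeq, GRCm38.p6.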

Additional observations from a re-analysis of the deposited data

How the results depend on the processing

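Of 714 alternative values of the 10 genes, 663 kept their direction and side of the threshold, 12 newly passed, 3 no longer passed and 36 changed sign. Members called changed to 1 at E14.5 with the replicate block (beside 8.65% of all genes). At E16.5 they changed to 1 with DESeq2 and 2 with the block (the block beside 32.2%), and for WT age to 1 with DESeq2. Over both ages they changed to 1 with the sex term and 4 (2 higher, 2 lower) when WT B and cKO A were left out together. Leaving out those 2 libraries was an alternative added after seeing the data. The main fit over both ages called 28.3% of all genes, and the shares in these 2 fits are not given here. The counts of 1 and 4 are therefore no result about the 10 genes. Leaving out 1 library gave 0 to 1 at E16.5 and for WT age, and 1 to 4 over both ages. All genes called at E14.5, 297 at first, were 1278 with DESeq2, 1336 in the fit of 12 libraries, 1279 with the block, 128 with the sex term and 621 without WT B and cKO A, and leaving out 1 library gave 0.0334% of genes (without cKO C) to 2.35% (without cKO A). At E16.5, 2358 became 4790 with the block, 1569 with the sex term, and 6.50% (without WT E) to 19.0% (without cKO D) leaving out 1. For WT age, 330 became 2005 with DESeq2, 10 with the sex term, 3697 without WT B and cKO A, and 0.0064% (without WT C) to 14.2% (without WT B) leaving out 1. The age difference gave 1 gene with the block, and 22.7% to 29.1% of genes were called over both ages leaving out 1. The block changed no other call of the 10 genes than those of Jun and Arc given above and of Jun at E14.5. There Jun was at 0.48 (edgeR adjusted p = 0.0499), at an age where the numbers were not taken as pairs.

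Signs turned for uncalled values only. At E16.5 Egr1 was -0.0086 with the block. For the age difference, Ier2 was 0.023 with the sex term, and without WT B and cKO A Ier2 was 0.096, Npas4 -0.17 and Dusp1 -0.061. For WT age with the sex term, Npas4 was -0.089 and Dusp1 -0.025. At E14.5 Hspa8 was 0.030 without WT B and cKO A. Leaving out 1 library, ranges that crossed 0 were, at E14.5, -0.24 to 1.46 for Egr1, -0.099 to 0.34 for Arc and -0.095 to 0.012 for Hspa8. At E16.5 they were -0.43 to 0.026 for Junb and -0.44 to 0.41 for Egr1. For the age difference they were -0.13 to 0.26 for Jun, -1.42 to 0.27 for Egr1, -0.38 to 0.60 for Npas4, -0.029 to 0.43 for Nr4a1, -0.32 to 0.057 for Ier2 and -0.020 to 0.36 for Dusp1. For WT age they were -0.34 to 0.11 for Junb, -0.37 to 0.35 for Npas4 and -0.079 to 0.29 for Dusp1, and over both ages -0.075 to 0.62 for Egr1 and -0.13 to 0.29 for Npas4. Values that kept their sign but moved by over 1.5 times included Junb (-0.34 without WT C), Nr4a1 (-0.52 without cKO A, -0.063 without cKO B) and Ier2 (-0.41 without cKO A, -0.032 without cKO B) at E14.5, and Dusp1 (-0.16 without WT D) and Ier2 (-0.22 without cKO D) at E16.5. The causes were not tested. Depth limits Fos, Fosb, Egr1 and Npas4 most.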
